A study of Mus musculus with 4 samples.

Results

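The 77 genes described here carry the names of mitochondrial ribosomal proteins and were measured in mouse peritoneal macrophages. For 76 of them the product is a mitoribosome subunit, and Mrps36 is the exception. They are the entries of the deposited expression table whose symbol begins with Mrpl or Mrps followed directly by a digit, 48 Mrpl and 29 Mrps genes among 23735 loci in all. Mitoribosome proteins with other names are described apart. The levels of these 77 genes were compared between macrophages with and without Ch25h, the gene for cholesterol 25-hydroxylase, an enzyme that makes 25-hydroxycholesterol.

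The mitochondrial ribosome, or mitoribosome, translates the few messenger RNAs of the mitochondrial genome, which encode core subunits of the respiratory chain and of ATP synthase. Its RNA is made in the mitochondrion, whereas its proteins are encoded in the nucleus, made on cytosolic ribosomes and imported. Some of these proteins have counterparts in bacterial ribosomes and others are found only in mitochondria.

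RNA was sequenced from peritoneal macrophages of C57BL/6 mice aged 6 weeks. Mice labelled ApoE-/-/Ch25h+/+ formed the group Ch25h_WT and mice labelled ApoE-/-/Ch25h-/- formed the group Ch25h_KO, so both groups lacked ApoE. All mice received 3% thioglycolate, which draws macrophages into the peritoneal cavity, 3 days before collection, and the cells were then cultured in serum-containing medium before total RNA was extracted. The labels give 12 mice per group and duplicates, with 2 libraries per genotype, and do not say how the mice were divided between the libraries. The p-values below therefore measure only the spread between these libraries. The values are FPKM, fragments scaled by transcript length and by library depth, and in such bulk RNA fewer cells of a type and less RNA per cell cannot be told apart.

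The Ch25h locus had 63.3 and 65.3 FPKM with the gene intact and 4.25 and 5.53 FPKM in Ch25h_KO (log2 change -3.48, SE 0.12, limma adjusted p = 0.0031), in the direction of the labels. FPKM steps of low loci implied between about 9670000 and 12550000 fragments per library. Saa3, an acute-phase protein gene, held 16.3% to 17.2% of all FPKM in each library. Of 8 macrophage markers all were detected, with summed levels of 26726 to 27673 FPKM in Ch25h_WT and 28102 to 28801 in Ch25h_KO. Lyz2 and Cd14 made up most of these sums, and Cd14 (5178 and 5288 FPKM in Ch25h_WT, 6870 and 6751 in Ch25h_KO) set their direction, while 6 of the 8 markers were lower in Ch25h_KO, with a median log2 change of -0.03. Sums over markers of other cells differed between the genotypes: 185 to 193 FPKM against 128 in both Ch25h_KO libraries for 5 mast cell markers, 71.4 to 81.6 against 116 for 5 neutrophil markers, 26.1 to 30.1 against 37.7 to 38.9 for 4 erythroid markers, of which 1 was at 0 in all libraries, and 317 to 321 against 285 to 300 for 5 B cell markers. S100a8 made up most of the neutrophil sums (56.3 and 66.6 FPKM in Ch25h_WT, 99.0 and 98.7 in Ch25h_KO). S100a9 was also higher in Ch25h_KO, Ngp was near 0, Retnlg overlapped and Cxcr2 was lower. Pax5 of the B cell markers and Fcer1a of the mast cell markers overlapped between the genotypes. For 6 T cell markers the sums were 5.59 to 6.40 and 5.88 to 7.33 FPKM. Their part in the results below was not tested.

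The promoters of the mitochondrial ribosomal protein genes show where these genes resemble one another in sequence. RefSeq entries (build GRCm38.p6) matched 68 of the 77 genes with 74 start windows, each reaching from 250 bases before to 50 bases after a start. The sequences below are the last 100 bases before the start, 5′ to 3′ on the strand of the gene. Mrpl34, Mrpl52, Mrpl33 and Mrpl16 are shown as the large-subunit genes with an unadjusted p under 0.05 between the genotypes. The small-subunit genes under that p, Mrps21, Mrps14, Mrps9 and Mrps11, are not printed. Mrpl22 is shown because it carries matches to both the NRF1 and the ETS core, and Mrpl36 because it carries a match to the YY1 core. Capitals mark matches to any of the motifs listed after the sequences.
Mrpl34 (chr8:71464826-71464925, plus strand): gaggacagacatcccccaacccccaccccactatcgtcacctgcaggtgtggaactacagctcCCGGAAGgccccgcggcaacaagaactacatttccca
Mrpl52 (chr14:54426809-54426908, plus strand): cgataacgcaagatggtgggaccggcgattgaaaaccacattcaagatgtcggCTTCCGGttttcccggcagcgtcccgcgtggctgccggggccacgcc
Mrpl33 (chr5:31613851-31613950, plus strand): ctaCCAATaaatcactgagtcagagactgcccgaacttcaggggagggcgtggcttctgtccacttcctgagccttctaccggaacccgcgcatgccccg
Mrpl16 (chr19:11770315-11770414, plus strand): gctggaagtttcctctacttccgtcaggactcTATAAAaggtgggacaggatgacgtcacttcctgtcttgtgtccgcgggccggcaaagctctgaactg
Mrpl22 (chr11:58171564-58171663, plus strand): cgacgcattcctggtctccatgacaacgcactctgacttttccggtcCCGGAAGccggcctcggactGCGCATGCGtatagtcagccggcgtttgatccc
Mrpl36 (chr13:73330909-73331008, plus strand): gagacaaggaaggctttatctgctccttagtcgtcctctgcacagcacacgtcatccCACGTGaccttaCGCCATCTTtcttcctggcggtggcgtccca

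NRF1, the ETS protein GABP and YY1 are transcription factors known for binding near nuclear genes of mitochondrial proteins. Motifs were searched on both strands. The ETS core CCGGAAG was present in 33.8% of the 74 windows, compared with 19.2% of the 10175 windows of all expressed genes tested and 8.86% of all 32851 promoters. The YY1 core AAGATGGCG was present in 10.8%, 3.36% and 1.40% of the same 3 sets. The NRF1 core GCGCATGCG, whose matches on both strands overlap within a palindrome, was present in 9.46%, 3.90% and 1.75%. Shares were near those of the expressed genes for the E-box CACGTG, which reads the same on both strands (9.46% against 10.5%), the CCAAT box (40.5% against 37.5%), the GC box GGGGCGGGG (20.3% against 21.8%) and the TATA box TATAAA (6.76% against 6.81%). In all, 35 of the 68 genes had at least 1 match to the NRF1, ETS or YY1 core and 5 had matches to 2 or more of these. The ETS match began 37 bases before the start in Mrpl34 and 47 bases before it in Mrpl52. In Mrpl33 it began 3 bases before the start and in Mrps21 it began 18 bases after it, neither wholly before the start. The other genes with an unadjusted p under 0.05 had no ETS core. Of these, Mrps11 had a YY1 core 108 bases before the start. Mrps9, Mrps14 and Mrpl16 had none of the NRF1, ETS and YY1 cores. These matches describe the sequence only.

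Divergent gene pairs were also frequent among them. Another gene on the opposite strand started within 1000 bases upstream of 26 of the 68 genes (38.2%), compared with 1646 of 7980 expressed genes (20.6%). The pair Mrpl46 and Mrps11, a large-subunit and a small-subunit protein gene, is shown as the pair in which both genes belong to the mitoribosome, with 41 bases between the starts. The pair Mrps12 and Sars2 joins a protein of the decoding site of the small subunit with the mitochondrial seryl-tRNA synthetase, with 146 bases between the starts. The bases between the starts are given 5′ to 3′ on the strand of the Mrps gene (GRCm38.p6), with the CCAAT boxes in capitals.
Mrpl46 to Mrps11 (chr7:78783090-78783130, plus strand): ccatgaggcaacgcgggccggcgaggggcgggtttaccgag
Sars2 to Mrps12 (chr7:28741822-28741967, minus strand): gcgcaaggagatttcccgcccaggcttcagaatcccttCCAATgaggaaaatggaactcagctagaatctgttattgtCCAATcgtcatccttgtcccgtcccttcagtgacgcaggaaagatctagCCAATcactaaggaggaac

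All 77 genes were expressed in each library, and their levels spanned a wide range. Mean FPKM over the 4 libraries ran from 4.10 for Mrpl1 to 222 for Mrpl52, a 54.1-fold range, with a median of 21.3 FPKM compared with 11.1 for all 10074 loci that reached a mean of 1 FPKM. The range was narrow around that median, with 68 genes between 5 and 50 FPKM, 4 below and 5 above. The 5 highest were Mrpl52 at 222 FPKM, Mrps21 at 118, Mrpl33 at 83.3, Mrpl20 at 76.0 and Mrpl12 at 62.5. Mrpl12 is the stalk protein of the large subunit and is also known to bind the mitochondrial RNA polymerase. The 4 highest genes held 24.5% of the summed level.

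Below them the levels ran together. Mrps18a at 48.3 FPKM, Mrpl30 at 47.7, Mrps18c at 44.1, Mrps16 at 42.7 and Mrpl23 at 38.8 followed. The 5 lowest were Mrpl57 at 5.78 FPKM, Mrpl11 at 4.83, Mrpl35 at 4.66, Mrpl19 at 4.12 and Mrpl1 at 4.10. Of 76 neighbouring pairs in this order only 6 had libraries that did not overlap, 4 of them among the highest genes and the others near the bottom (Mrpl41 above Mrps25 and Mrpl57 above Mrpl11), so most neighbours could not be ordered beyond their spread. Across the 77 genes, level and median annotated transcript length had a Spearman rho of -0.51, a description across genes that share libraries. FPKM of very short transcripts depends on how the fragment length is taken into account, which is not given in the sources used here.

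**Figure D1:**
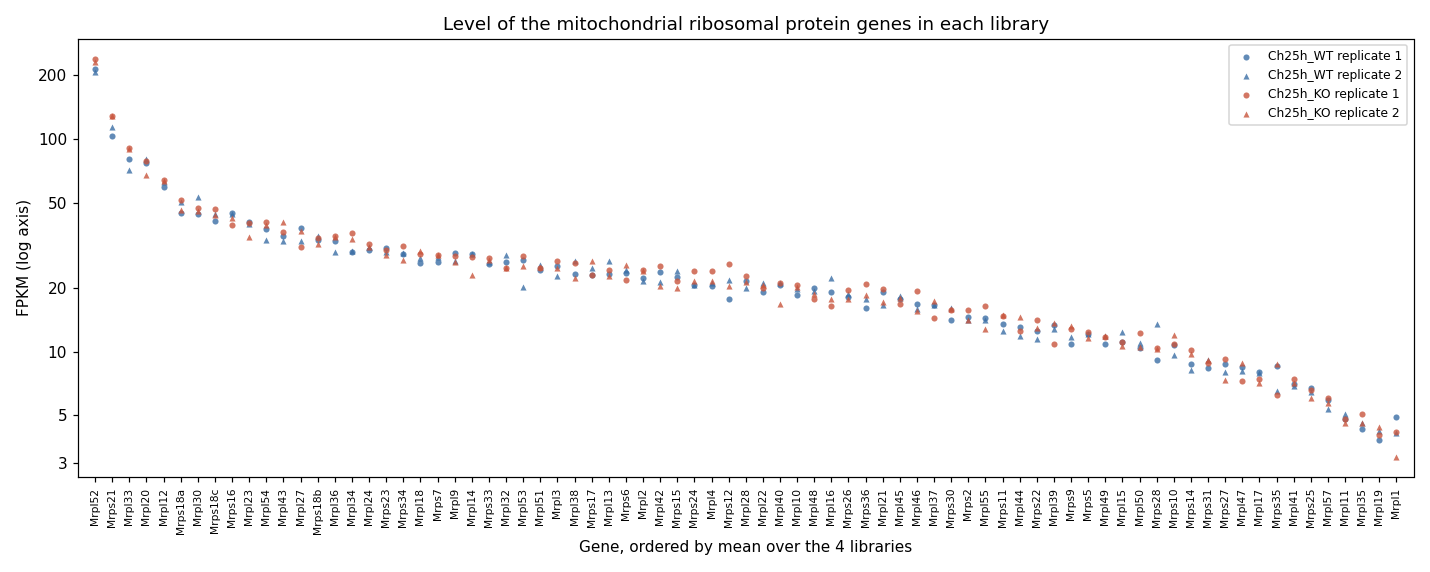
FPKM (log axis) of each of the 77 genes in the 4 libraries, ordered along the horizontal axis by mean level, with Ch25h_WT in blue, Ch25h_KO in red, circles for replicate 1 and triangles for replicate 2. Mrpl52 stands highest at 207 to 239 FPKM, most genes lie between 5 and 50 FPKM, and the colours intermix for most genes.

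Between the genotypes, no mitochondrial ribosomal protein gene passed the test. With limma on log2(FPKM + 1), 0 of the 77 had a Benjamini-Hochberg adjusted p under 0.05, whereas 0.437% of the 10074 loci tested did. The smallest adjusted p among the 77 was 0.138 (limma), for Mrpl34. At an unadjusted p under 0.05, 7 genes were higher in Ch25h_KO (9.09% of the 77, compared with 9.38% of all loci) and 1 was lower (1.30%, compared with 11.5%). The share of higher genes thus lay at the background and the share of lower genes below it. These counts moved when single libraries were left out, with more lower than higher without Ch25h_KO replicate 1. The shares of all loci in those fits are not given, so this shift cannot be set against the background. When limma was given a mean-variance trend and a robust fit, 4 of the 77 passed: Mrps21 (adjusted p = 0.021), Mrpl34 (0.032), Mrpl33 (0.039) and Mrpl52 (0.045), all higher in Ch25h_KO, in a setting that called 786 loci in all.

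The differences were small throughout. The log2 change from Ch25h_WT to Ch25h_KO ranged from -0.26 for Mrpl16 to 0.24 for Mrpl33, with a median of 0.04 compared with -0.01 for all loci tested. Of the 77 genes, 45 differed by less than 0.1 on this scale, and 8 differed by 0.2 or more. The 95% limma intervals lay within 0.5 of 0 for 71 genes and within 1 of 0 for all 77, with a median half-width of 0.19. The log2(FPKM + 1) scale understates the difference of the lowest genes. In 24 genes both Ch25h_KO libraries lay above both Ch25h_WT libraries (31.2%, compared with 23.4% of all loci), and in 8 both lay below (10.4%, compared with 30.3%).

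**Figure D2:**
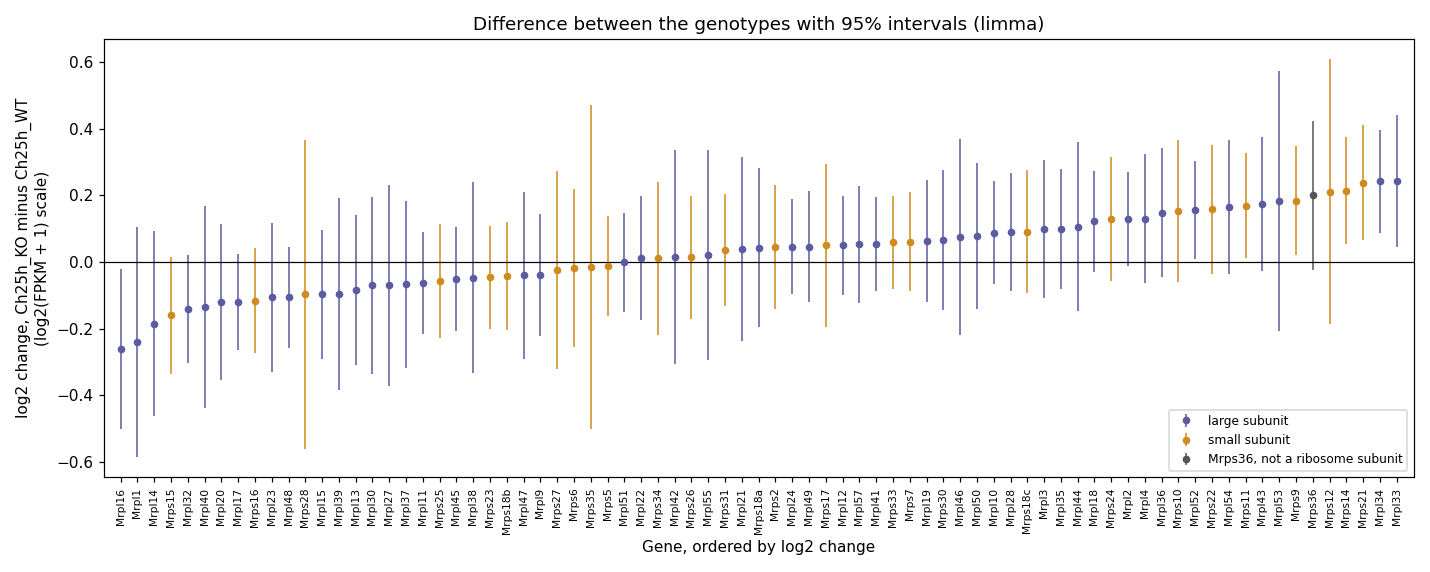
Log2 change from Ch25h_WT to Ch25h_KO on the log2(FPKM + 1) scale for each of the 77 genes, ordered by its value, with bars for the 95% limma interval and colours for the subunit. Points run from -0.26 to 0.24, and most bars include 0, for large and small subunit genes alike.

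Summed over all 77 genes, the level came to 1987 and 2005 FPKM for Ch25h_WT and to 2116 and 2037 FPKM for Ch25h_KO. The sums did not overlap, and the ratio of the group means was 1.04. As a share of all FPKM the sums were 0.284% and 0.283% in Ch25h_WT and 0.289% and 0.284% in Ch25h_KO. Of the difference of 80.1 FPKM between the group means, Mrps21, Mrpl34, Mrpl33 and Mrpl52 together gave 63.5 and the other 73 genes gave 16.6. Those 73 genes summed to 1561 and 1583 FPKM in Ch25h_WT and to 1621 and 1556 FPKM in Ch25h_KO, which overlapped. The 4 genes were named for their values, so this division is a description.

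In the large subunit, the genes with an unadjusted p under 0.05 were Mrpl34, Mrpl33, Mrpl52 and Mrpl16. Mrpl34 (locus XLOC_020402), the counterpart of a small basic protein of the bacterial large subunit, had 29.3 and 29.6 FPKM in Ch25h_WT and 36.2 and 33.9 FPKM in Ch25h_KO. The Ch25h_KO libraries were both higher, by 1.19-fold (log2 change 0.24, SE 0.06, limma adjusted p = 0.138). Its promoter, printed first above, carries an ETS core.

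Mrpl33, also the counterpart of a bacterial large-subunit protein, had 80.9 and 71.8 FPKM in Ch25h_WT and 91.2 and 89.5 FPKM in Ch25h_KO. No overlap was present, and the ratio was 1.18 (log2 change 0.24, SE 0.08, limma adjusted p = 0.189). Mrpl52, a mitochondria-specific protein, had 213 and 207 FPKM in Ch25h_WT and 239 and 229 FPKM in Ch25h_KO. Both Ch25h_KO libraries were again higher, by 1.12-fold (log2 change 0.16, SE 0.06, limma adjusted p = 0.222).

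Mrpl16, the counterpart of a bacterial protein near the peptidyl transferase centre, was the 1 gene lower in Ch25h_KO at an unadjusted p under 0.05. It had 19.1 and 22.2 FPKM in Ch25h_WT and 16.3 and 17.7 FPKM in Ch25h_KO. The groups did not overlap, with a ratio of 0.825 (log2 change -0.26, SE 0.09, limma adjusted p = 0.219). The stretch before its start, printed above, held a TATA box and none of the NRF1, ETS and YY1 cores.

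In the small subunit, the 4 genes with an unadjusted p under 0.05 were Mrps21, Mrps14, Mrps9 and Mrps11, all counterparts of bacterial proteins. Of 26 small-subunit genes, 9 were higher in Ch25h_KO without overlap between the genotypes (34.6%, compared with 23.4% of all loci). Another 2 were lower without overlap (7.69%, compared with 30.3%). Mrps21 (locus XLOC_013714) had 104 and 113 FPKM in Ch25h_WT and 128 FPKM in both Ch25h_KO libraries (log2 change 0.24, SE 0.07, limma adjusted p = 0.162). Mrps14 had 8.76 and 8.14 FPKM in Ch25h_WT and 10.1 and 9.78 FPKM in Ch25h_KO (log2 change 0.21, SE 0.06, limma adjusted p = 0.169). In both genes the Ch25h_KO libraries lay above the Ch25h_WT libraries without overlap.

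Mrps9 had 10.8 and 11.7 FPKM in Ch25h_WT and 12.7 and 13.1 FPKM in Ch25h_KO (log2 change 0.18, SE 0.06, limma adjusted p = 0.207). Mrps11 had 13.4 and 12.5 FPKM in Ch25h_WT and 14.6 and 14.8 FPKM in Ch25h_KO (log2 change 0.17, SE 0.06, limma adjusted p = 0.220). Neither gene overlapped between the genotypes. Mrpl46, which starts next to Mrps11 across the 41 bases shown above, had 16.8 and 15.9 FPKM in Ch25h_WT and 19.2 and 15.5 FPKM in Ch25h_KO, which overlapped.

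**Figure D3:**
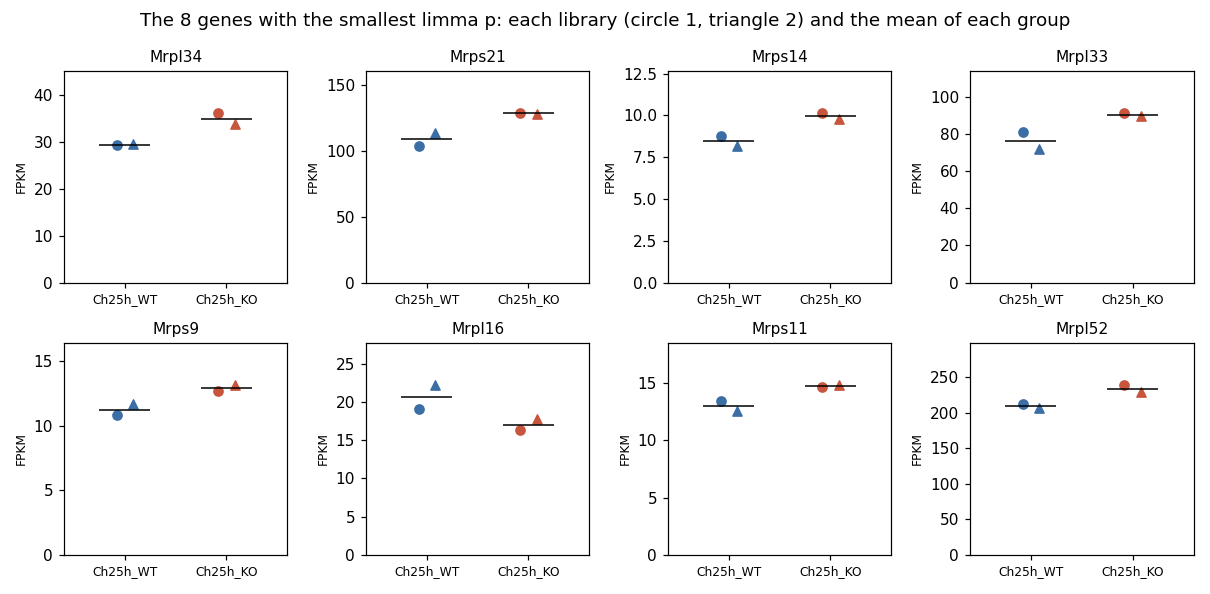
FPKM in each library (circle for replicate 1, triangle for replicate 2) and the mean of each group (line) for the 8 genes with the smallest limma p, each axis starting at 0. The Ch25h_KO libraries lie above the Ch25h_WT libraries in 7 genes and below them in Mrpl16, and no gene passed the adjusted threshold.

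The next genes by p in the higher direction were Mrpl2, Mrps36 and Mrpl43. Mrpl2, the counterpart of a bacterial protein that helps shape the peptidyl transferase centre, had 22.3 and 21.5 FPKM in Ch25h_WT and 24.3 and 23.9 FPKM in Ch25h_KO (limma adjusted p = 0.264). Mrpl43, a mitochondria-specific large-subunit protein, had 34.9 and 33.1 FPKM in Ch25h_WT and 36.4 and 40.7 FPKM in Ch25h_KO (limma adjusted p = 0.286). Mrps36, named as a ribosomal protein but known as a component of the 2-oxoglutarate dehydrogenase complex, had 16.1 and 17.7 FPKM in Ch25h_WT and 20.7 and 18.4 FPKM in Ch25h_KO (limma adjusted p = 0.274). None of the 3 overlapped between the groups.

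Genes in the lower direction after Mrpl16 were Mrps15, Mrpl32, Mrpl17, Mrps16, Mrpl1, Mrpl48, Mrpl14, Mrpl20 and Mrpl15, with limma adjusted p-values from 0.271 for Mrps15 to 0.502 for Mrpl15. Mrpl32, a large-subunit protein that is cleaved by the m-AAA protease before it joins the ribosome, had 26.3 and 28.4 FPKM in Ch25h_WT and 24.7 and 24.8 FPKM in Ch25h_KO (log2 change -0.14, SE 0.06). Mrps15 had 22.4 and 23.8 FPKM in Ch25h_WT and 21.4 and 19.8 FPKM in Ch25h_KO (log2 change -0.16, SE 0.07). The groups did not overlap in these genes, nor in Mrps16, Mrpl17, Mrpl48, Mrpl14 and Mrpl11. Mrpl1, the lowest gene of all, had 4.91 and 4.12 FPKM in Ch25h_WT and 4.17 and 3.19 FPKM in Ch25h_KO, and Mrpl20 had 77.5 and 80.8 FPKM in Ch25h_WT and 78.4 and 67.4 FPKM in Ch25h_KO. The libraries overlapped in both.

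Mrpl12 and Mrps12 were looked at for their roles, and neither passed the test. Mrpl12 had 59.7 and 63.0 FPKM in Ch25h_WT and 64.0 and 63.2 FPKM in Ch25h_KO (log2 change 0.05, 95% interval -0.10 to 0.20). Mrps12, in the decoding site, had 17.8 and 21.8 FPKM in Ch25h_WT and 25.9 and 20.4 FPKM in Ch25h_KO (log2 change 0.21, 95% interval -0.19 to 0.61). The libraries of Mrps12 overlapped between the genotypes, whereas those of Mrpl12 did not.

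The paralogs Mrps18a, Mrps18b and Mrps18c, which descend from 1 bacterial small-subunit protein, were not separated either. Mrps18a, which sits in the large subunit despite its name, had 44.8 and 50.4 FPKM in Ch25h_WT and 51.9 and 46.3 FPKM in Ch25h_KO. Mrps18b had 33.7 and 34.9 FPKM in Ch25h_WT and 34.4 and 32.2 FPKM in Ch25h_KO. Mrps18c had 41.0 and 44.3 FPKM in Ch25h_WT and 47.1 and 43.9 FPKM in Ch25h_KO. The libraries of the genotypes overlapped in all 3 paralogs. They also overlapped in Mrps30, another Mrps protein of the large subunit, with 15.0 ± 1.47 FPKM (SD, n = 2) in Ch25h_WT and 15.8 ± 0.201 FPKM (SD, n = 2) in Ch25h_KO.

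Counts and medians were also taken by subunit and by evolutionary origin. The 50 proteins of the large subunit had a median log2 change of 0.04, with 3 higher (6%) and 1 lower (2%) in Ch25h_KO at an unadjusted p under 0.05, compared with 9.38% and 11.5% of all loci. The 26 of the small subunit also had a median of 0.04, with 4 higher (15.4%) and none lower. The median was 0.04 for the 48 genes with a bacterial counterpart, of which 6 were higher (12.5%) and 1 lower (2.08%), and 0.03 for the 28 mitochondria-specific genes, of which 1 was higher (3.57%) and none lower. No difference between these groups was tested. By promoter motif, the median was 0.05 for the 25 genes with an ETS core (4 higher, 16%, and none lower), 0.07 for the 8 with a YY1 core (1 higher and none lower) and -0.04 for the 7 with an NRF1 core (none in either direction).

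Replicates were close for most of the 77 genes. The within-group coefficient of variation had a median of 4.91% and reached 27.2% for Mrps28 in Ch25h_WT, with 9.13 and 13.5 FPKM there and 10.4 and 10.2 FPKM in Ch25h_KO. Fragments were estimated from the median annotated transcript length of each gene and the implied depth. By this estimate the least covered library held about 29.5 fragments for Mrpl11, a median of 207 over the genes and 1052 for Mrps16. The estimate depends on the length used. Mrpl11 has a median of 663 bases and a longest transcript of 3045, and Mrpl17 has 743.5 and 7300. With median lengths, fewer than 100 fragments stood behind 7 genes in at least 1 library.

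Transcript length, examined after the values had been seen, had a weak negative relation to the differences. Across the 77 genes the longest annotated transcript and the log2 change had a Spearman rho of -0.29, and across 9621 loci tested with a length it was -0.19, both descriptions across genes that share the 4 libraries. Mrps21 at 488 bases, Mrpl34 at 607, Mrpl33 at 478 and Mrpl52 at 463 are among the shortest transcripts. The 24 genes of up to 1000 bases and the 36 genes of 1000 to 3000 bases both had a median log2 change of 0.05. The 17 genes over 3000 bases had a median of -0.01. For all loci of these lengths the medians were 0.03, 0.004 and -0.03. The part of transcript length in the differences was not tested.

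**Figure D4:**
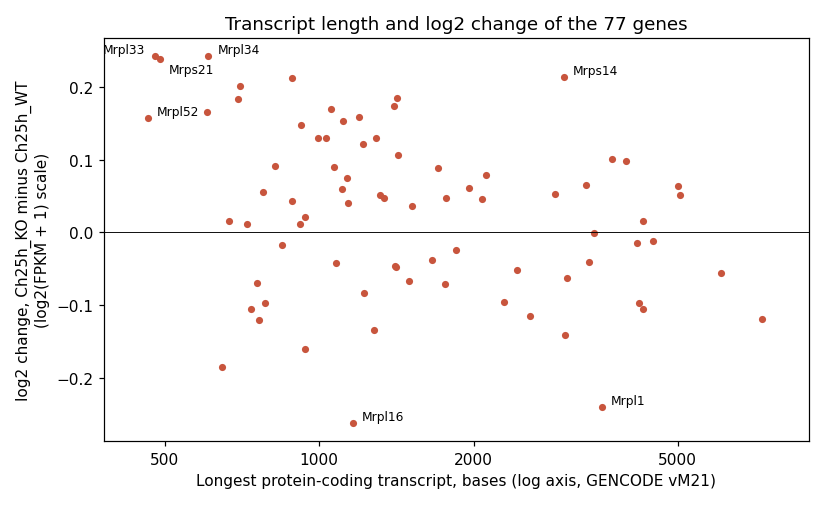
Longest protein-coding transcript in bases (log axis) against log2 change from Ch25h_WT to Ch25h_KO for each of the 77 genes, 1 point per gene, with 7 genes named. Mrpl33, Mrps21, Mrpl34 and Mrpl52 lie at the short end with changes of 0.16 to 0.24, while Mrps14, at 2999 bases, lies apart from them.

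Proteins that work with the mitoribosome gave no call either. A list of 7 genes with other names held mitoribosome proteins and Oxa1l, which is not a ribosomal protein. At an unadjusted p under 0.05, 1 was higher in Ch25h_KO (14.3%, compared with 9.38% of all loci) and none lower. The median log2 change was -0.0025, the value of Oxa1l itself. That 1 gene was Chchd1, a small-subunit protein, with 37.2 and 35.0 FPKM in Ch25h_WT and 40.9 and 42.3 FPKM in Ch25h_KO (limma adjusted p = 0.180). The 27 of 29 assembly and RNA factors that were expressed had a median of 0.04, with 2 higher and 2 lower (7.41% each, compared with 9.38% and 11.5% of all loci) and none past the adjusted threshold. Lower were Lrpprc, which stabilizes mitochondrial messenger RNAs, at 11.6 and 12.5 FPKM in Ch25h_WT and 10.2 and 10.3 in Ch25h_KO, and Eral1, a chaperone of the small-subunit ribosomal RNA, at 7.59 and 7.85 FPKM in Ch25h_WT and 6.66 and 6.71 in Ch25h_KO. Higher were Rpusd3, a pseudouridine synthase family member, at 1.89 and 1.86 FPKM in Ch25h_WT and 2.37 and 3.68 in Ch25h_KO (log2 change 0.47, SE 0.16), and Mettl17, a factor for small-subunit assembly, at 3.04 and 3.29 FPKM in Ch25h_WT and 4.12 and 3.55 in Ch25h_KO (log2 change 0.21, SE 0.08). No overlap was present in any of these 4 genes.

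The mitochondrial translation factors had a median below 0, and whether they differ from the ribosomal proteins was not tested. Of 14 that were expressed, 10 lay below 0, with a median log2 change of -0.04, and at an unadjusted p under 0.05 there were 3 lower (21.4%) and 1 higher (7.14%), compared with 11.5% and 9.38% of all loci. Mtif2, the initiation factor that brings in the first transfer RNA, had 5.22 and 5.65 FPKM in Ch25h_WT and 4.43 and 3.83 FPKM in Ch25h_KO (limma adjusted p = 0.141). Mtrf1, a release factor, had 2.04 and 1.79 FPKM in Ch25h_WT and 1.42 and 1.13 FPKM in Ch25h_KO (limma adjusted p = 0.141). Gfm2, a ribosome recycling factor named after its values were seen, had 10.8 and 10.4 FPKM in Ch25h_WT and 9.28 and 9.25 FPKM in Ch25h_KO. The higher one was Taco1, an activator of the translation of a cytochrome c oxidase subunit, with 4.82 and 5.07 FPKM in Ch25h_WT and 5.54 and 5.68 FPKM in Ch25h_KO (limma adjusted p = 0.226). None of these 4 genes overlapped between the groups.

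Regulators of mitochondrial gene expression and mitochondrial proteases, 16 of 18 expressed, had a median log2 change of -0.01. At an unadjusted p under 0.05 there were 1 higher and 1 lower (6.25% each, compared with 9.38% and 11.5% of all loci). The lower one was Afg3l2, a subunit of the m-AAA protease that cleaves Mrpl32, at 33.0 and 33.1 FPKM in Ch25h_WT and 29.2 and 30.1 FPKM in Ch25h_KO (limma adjusted p = 0.215). The higher one was Gabpb1, a subunit of the ETS factor GABP, at 8.51 and 8.24 FPKM in Ch25h_WT and 9.41 and 9.51 FPKM in Ch25h_KO (limma adjusted p = 0.204). The groups did not overlap in these 2 genes.

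The nuclear-encoded subunits of the respiratory chain and ATP synthase, whose partners the mitoribosome makes, had a median log2 change of 0.05 over 75 genes. This was close in value to that of the 77 ribosomal protein genes. None passed the adjusted threshold, and at an unadjusted p under 0.05 there were 10 higher (13.3%) and 2 lower (2.67%), compared with 9.38% and 11.5% of all loci. Cox8a, a subunit of cytochrome c oxidase, had 239 and 246 FPKM in Ch25h_WT and 308 and 285 FPKM in Ch25h_KO (limma adjusted p = 0.124). The lower ones were Sdha, a complex II subunit, at 68.9 and 70.0 FPKM in Ch25h_WT and 61.2 and 62.9 in Ch25h_KO, and Ndufa3, a complex I subunit, at 145 and 146 FPKM in Ch25h_WT and 126 and 132 in Ch25h_KO. The median level of these subunits was 77.6 FPKM. The cytosolic ribosomal set held the genes whose symbol begins with Rpl or Rps followed directly by a digit, without Rps6k kinases. It thus includes loci with pseudogene symbols and genes such as Rps19bp1 and Rpl7l1, and leaves out Fau. The 82 expressed genes of this set, at a median of 1038 FPKM, had a median log2 change of -0.01. At the unadjusted p, 4 were higher (4.88%) and 7 lower (8.54%), and none passed the adjusted threshold. The lower ones included Rps15a-ps4 and Rpl7l1. These cytosolic genes have many near-identical pseudogene copies, so their values are uncertain where reads could be split between copies.

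**Figure D5:**
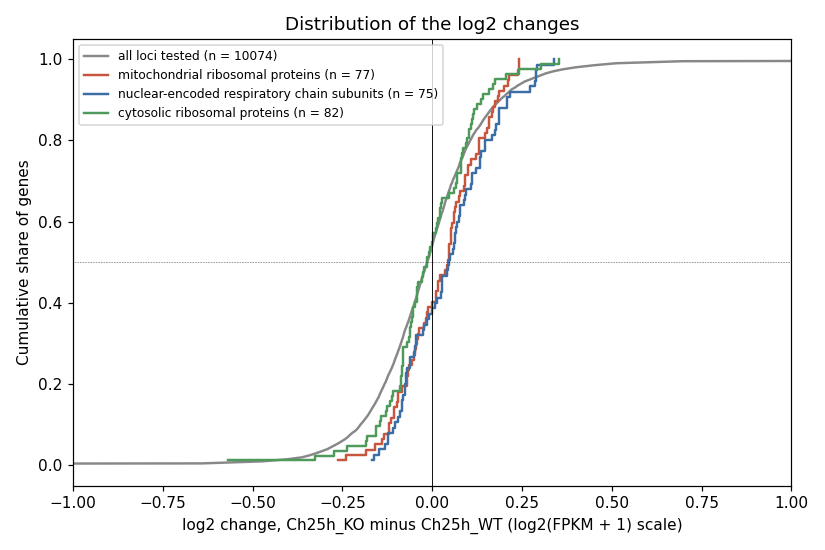
Cumulative share of genes against log2 change from Ch25h_WT to Ch25h_KO. The sets are the 77 mitochondrial ribosomal protein genes, 75 nuclear-encoded subunits of the respiratory chain and ATP synthase, 82 genes of the cytosolic ribosomal set and all 10074 loci tested. The medians are 0.04, 0.05, -0.01 and -0.01. The mitochondrial ribosomal protein genes span -0.26 to 0.24 and the nuclear-encoded subunits -0.17 to 0.34. All loci, which are far more in number, have long tails.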

How the data were processed

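Peritoneal macrophage RNA was sequenced in 4 libraries, 2 per genotype. The table deposited by the authors holds FPKM per locus, a unit that its header does not name and that follows from the submitters' processing notes (bcl2fastq, TopHat2 2.0.14, Cufflinks 2.2.1, build mm9) and from the values. Of the annotation, strandedness and filters, nothing is stated in the labels. The 24192 lines were joined into 23735 loci. Low loci (mean up to 0.2 FPKM) held values that were whole multiples of 1 fragment in 97.3% of 2274 loci (tolerance 0.01 fragments), which gave relative depths of 1, 0.800, 0.824 and 0.770 in the order Ch25h_WT 1 and 2, Ch25h_KO 1 and 2. Absolute depth used lengths from GENCODE vM21 and 649 loci, so fragment numbers are approximate.

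The log2(FPKM + 1) values of the 10074 loci whose mean reached 1 FPKM were tested with limma 3.58.1 (R 4.3.3), with genotype as the only term and Benjamini-Hochberg adjustment over all of them. All 77 genes passed this filter. The fit was tested on simulated data. Of the 77 genes, 3 share a locus with another symbol (Mrps23, Mrps6, Mrpl53). Symbols were matched through RefSeq names (GRCm38.p6), and no genome of mm9 was used.

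The genes, lists, roles and motifs were chosen with earlier results of these data known. Named were the 10 highest and 5 lowest genes by mean, the 10 with the smallest p in each direction, 7 genes by role, and from each other list up to 2 genes per direction by p. Alternatives were other pseudocounts, filters, scalings, a trend with robust fit, a replicate block and leaving out each library.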

Additional observations from a re-analysis of the deposited data

How the results depend on the processing

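The median log2 change of the 77 genes stayed positive under every setting run, between 0.02 and 0.07 when each library was left out, and no gene passed the adjusted threshold except with the limma trend and robust fit. That fit called 4 of the 77, with 12 higher and 3 lower at an unadjusted p under 0.05. It called 7 nuclear-encoded subunits of the respiratory chain or ATP synthase, 10 genes of the cytosolic ribosomal set and 786 loci in all. With a pseudocount of 5, 3 of the 77 were lower at the unadjusted p, and 3 genes of the cytosolic ribosomal set and 317 loci passed. With a pseudocount of 0.1 the number lower was 0. Shares of all loci at the unadjusted p are not given for these settings. Whether the counts of the 77 moved apart from the background thus cannot be read from them. With a mean of at least 5 FPKM, 73 of the 77 genes were tested, and 1 gene of the cytosolic ribosomal set and 175 loci passed. Without a filter 18 loci passed.

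Leaving out a library also moved the counts at an unadjusted p under 0.05, with more lower than higher without Ch25h_KO replicate 1. Whether all loci moved in the same way is not given. In such a fit the lone library of a group is assumed to vary like the other group. The counts of such fits are therefore not given. Among the 32 named genes, which alone were followed gene by gene, the sign of the change turned for 5. Their log2 changes ran from -0.040 (without Ch25h_WT replicate 1; -0.036 without Ch25h_KO replicate 1) to 0.127 for Mrps18a, from -0.028 (without Ch25h_WT replicate 1) to 0.159 for Mrps30, from -0.202 to 0.061 (without Ch25h_WT replicate 2) for Mrpl30, from -0.0031 (without Ch25h_WT replicate 2) to 0.109 for Mrpl57, and from -0.088 to 0.0049 (without Ch25h_KO replicate 2) for Mrps18b. The cause was not tested.

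Same-numbered libraries did not deviate together (correlation 0.01 over all loci, -0.07 over the 77 genes). With 1 difference per genotype, this cannot show whether they were handled as pairs. With the replicate number as a block, 0 of the 77 passed, the median was 0.04 and 6 loci passed in all. At an unadjusted p under 0.05, 5 of the 77 were higher and 2 lower. The shares of all loci at that p are not given for this fit, so these counts cannot be set against the background. Scaling by median ratios or upper quartiles moved library levels by about 1% or less. By the estimate from median transcript lengths, depth limits the 7 genes with fewer than 100 fragments most. Longer transcripts would raise some of these numbers. Restricting the genes to loci with no other symbol was chosen after seeing the data and left the count of calls at 0.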

Other observations

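Of the 25 head-to-head pairs, that of Mrpl46 and Mrps11 lay within the family and the others held 24 genes outside it, of which 21 were expressed highly enough to be tested with limma. None of the 21 passed the adjusted threshold, and at an unadjusted p under 0.05 there were 2 higher in Ch25h_KO and 2 lower (9.52% each, compared with 9.38% and 11.5% of all loci), which is near the background. The 4 are given here as values and were named after these were seen. Fau, a cytosolic ribosomal protein gene whose start lies 192 bases from that of Mrpl49, had 1739 and 1573 FPKM in Ch25h_WT and 2039 and 1870 FPKM in Ch25h_KO (log2 change 0.24, limma adjusted p = 0.207), while Mrpl49 had 10.8 and 11.8 FPKM in Ch25h_WT and 11.7 and 11.8 FPKM in Ch25h_KO. Klc4, a kinesin light chain gene at 141 bases from Mrpl2, had 3.80 and 3.69 FPKM in Ch25h_WT and 4.86 and 4.45 FPKM in Ch25h_KO (log2 change 0.25, limma adjusted p = 0.139). The zinc finger genes Zfp189 beside Mrpl50 and Zfp661 beside Mrps5 had log2 changes of -0.19 and -0.25, and Mrpl50 and Mrps5 had 0.08 and -0.01.

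Neighbours with mitochondrial roles were not separated between the genotypes. Ndufb5, a respiratory complex I subunit gene 308 bases from Mrpl47, had 26.7 and 25.6 FPKM in Ch25h_WT and 28.2 and 26.6 FPKM in Ch25h_KO. Sars2 had 1.98 and 2.69 FPKM in Ch25h_WT and 2.66 and 2.63 FPKM in Ch25h_KO. Twnk, the gene of the mitochondrial DNA helicase, had 2.28 and 2.85 FPKM in Ch25h_WT and 2.53 and 2.65 FPKM in Ch25h_KO. The libraries overlapped in all 3 genes.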
